A study of Homo sapiens and Mus musculus with 17 samples.

Results

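The endoplasmic reticulum (ER) holds several ubiquitin ligases and conjugating enzymes besides the SEL1L-HRD1 complex. Here, the mRNA levels of 9 such genes were followed in human cells and mouse tissue with a SEL1L or HRD1 knockout by label: the ligase genes RNF5, RNF185, RNF139, RNF145, TRIM13 and TMEM129, the conjugating enzyme genes UBE2G2 and UBE2J2, and AUP1, whose product recruits a conjugating enzyme. They were taken by gene symbol, ignoring case, from 62714 human and 55491 mouse genes, and each symbol matched 1 gene per species. The question was whether parallel branches of ER-associated degradation (ERAD) changed at the mRNA level when the SEL1L-HRD1 branch was lost.

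RNA with polyA tails was sequenced from HEK293T, a human embryonic kidney cell line, and from brown adipose tissue (BAT) of C57BL/6J mice aged 12 weeks. The HEK293T libraries were 3 WT, 3 SEL1L KO and 3 HRD1 KO, with knockout by CRISPR/Cas9 and with WT cells that had received the plasmid without a guide RNA. BAT came from 3 WT mice, 3 Sel1l flox/flox; Ucp1-Cre mice (Sel1L KO) and 2 Hrd1 flox/flox; Ucp1-Cre mice (Hrd1 KO). The Ucp1 promoter drives Cre in brown adipocytes, so that other cells of the tissue keep the gene. The labels do not give the number of clones per line or say whether the cultures were grown separately, so that p-values measure only the spread between these libraries, which may be technical.

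In ERAD, misfolded proteins of the ER lumen or membrane are recognised, ubiquitinated at the cytosolic face and extracted by the ATPase VCP (p97) for the proteasome. A membrane-bound RING ligase passes ubiquitin from a conjugating enzyme (E2) to the substrate. In the SEL1L-HRD1 complex the ligase is HRD1, encoded by SYVN1, and SEL1L is its cofactor. Other ligases act on partly different substrates, such as HMG-CoA reductase, and use UBE2G2, UBE2J2 or other E2 enzymes.

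Many ERAD genes are known targets of the unfolded protein response, whose transcription factors ATF6 and XBP1 bind the ER stress elements ERSE (CCAAT and CCACG spaced by 9 bases) and ERSE-II (ATTGG and CCACG spaced by 1 base) and the UPRE core (TGACGTG). RefSeq promoter sequences of GRCh38.p14 were used for 5 of the 9 genes: AUP1, RNF5, UBE2G2 and UBE2J2 with 1 window each and RNF145 with 5. RNF5, UBE2G2 and UBE2J2 are shown because UBE2G2 had the lowest log2 fold change of the 9 genes in SEL1L KO HEK293T cells, and because RNF5 and UBE2J2 varied in opposite directions between the HEK293T libraries, as described below. Each run is the 250 bases before the annotated start, 5′ to 3′ on the strand of the gene, and capitals mark the letters CCAAT or their reverse complement. RNF5 lies on the plus strand (chr6:32178155-32178404), UBE2G2 on the minus strand (chr21:44801821-44802070) and UBE2J2 on the minus strand (chr1:1273855-1274104).
RNF5: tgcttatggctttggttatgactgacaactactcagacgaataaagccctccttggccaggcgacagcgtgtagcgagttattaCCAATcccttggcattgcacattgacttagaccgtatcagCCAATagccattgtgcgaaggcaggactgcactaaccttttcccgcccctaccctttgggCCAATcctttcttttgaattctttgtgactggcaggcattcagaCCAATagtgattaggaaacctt
UBE2G2: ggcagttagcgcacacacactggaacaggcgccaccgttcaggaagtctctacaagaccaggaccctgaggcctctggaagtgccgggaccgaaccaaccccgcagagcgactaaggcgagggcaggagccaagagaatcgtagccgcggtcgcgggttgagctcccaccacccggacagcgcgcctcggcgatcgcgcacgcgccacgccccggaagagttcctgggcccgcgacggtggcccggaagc
UBE2J2: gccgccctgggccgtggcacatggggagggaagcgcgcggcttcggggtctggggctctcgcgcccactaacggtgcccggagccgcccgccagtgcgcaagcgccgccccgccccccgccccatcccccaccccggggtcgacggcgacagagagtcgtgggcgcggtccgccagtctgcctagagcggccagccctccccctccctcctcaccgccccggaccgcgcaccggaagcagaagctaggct
None of the ERSE, ERSE-II and UPRE core was found on either strand of these 3 windows, nor in those of AUP1 and RNF145. Among 35116 promoter windows of the same length, 1.81% held at least 1 of the 3 elements, so that their absence is the usual case. RNF5 held 4 CCAAT boxes, against 0 in UBE2G2 and 0 in UBE2J2, while 32.0% of all promoters held at least 1 and 0.874% held 4 or more. GC content was 47.6% for RNF5, 68.0% for UBE2G2 and 76.8% for UBE2J2, beside a median of 58.0% over all promoters. The letters CCAAT were counted after the sequences had been seen. AUP1, whose levels varied against RNF5 more strongly than those of UBE2J2, held 0 CCAAT boxes at 69.2% GC. A link between these letters and mRNA levels was not tested.

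Expression is given as FPKM, fragments scaled to transcript length and library size, which allows levels to be ordered between genes of a table. Changes are differences of log2(FPKM + 0.1), so that changes of genes at low FPKM come out too small. SEL1L was lower in every SEL1L KO HEK293T library (1.82 to 3.36 FPKM) than in WT (4.39 to 12.85 FPKM). SYVN1 was above the WT range in those labelled HRD1 KO (18.48 to 22.47 FPKM, WT 16.7 to 16.95 FPKM). Likewise, Syvn1 in the 2 BAT libraries labelled Hrd1 KO was 13.77 to 14.05 FPKM, above the WT range of 5.2 to 5.65 FPKM. Sel1l in the BAT libraries labelled Sel1L KO was 25.2, 8.17 and 8.38 FPKM, against 9.1 to 12.88 FPKM in WT. In these values the KO labels of these 3 groups therefore rest on the sample annotation, and every direction given for them is by label. The mRNA level does not show whether the protein was lost. The study reports immunoblots that checked its knockout HEK293T lines. The BAT library labelled Sel1L KO replicate 1 stood apart, with a mean correlation of 0.881 with its own group, while the other BAT libraries had 0.914 to 0.953. The 6 HEK293T markers were above 0 in every HEK293T library. NEFM, however, ran from 0.11 to 50.89 FPKM in SEL1L KO, against 23.02 to 39.98 FPKM in WT. LHX1 was as low as 0.64 FPKM in WT and 0.4 FPKM in SEL1L KO. In BAT, the 10 brown adipocyte markers summed to 27043 to 30842 FPKM in WT. All knockout libraries were below, at 19946 and 26264 FPKM in Hrd1 KO and 22762 to 26440 FPKM in Sel1L KO. Fabp4 was the most abundant of these markers (mean 16505 FPKM in WT).

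In WT HEK293T cells, AUP1 was the most abundant of the 9 genes (148 ± 50.5 FPKM, SD, n = 3). UBE2G2 followed at 111 ± 24.2 FPKM, and the WT ranges of AUP1 and UBE2G2 overlapped. UBE2J2 (61.2 ± 12.2 FPKM) and RNF5 (58.8 ± 7.69 FPKM) overlapped as well, and came before TMEM129 (37.1 ± 2.93 FPKM). RNF145 (23.4 ± 6.20 FPKM) and RNF185 (16.3 ± 3.28 FPKM) overlapped, as did TRIM13 (11.3 ± 1.79 FPKM) and RNF139 (9.94 ± 0.989 FPKM) at the lower end. The other neighbours in this order had separate ranges. E2 enzymes and the E2 recruiter AUP1 thus stood above 5 of the 6 ligases, with RNF5 at the level of UBE2J2. All 9 genes passed the filter on low values in both tables, and their WT means lay between percentile 48.3 (RNF139) and 95.2 (AUP1) of the HEK293T genes tested.

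In WT BAT the order differed. Rnf5 was highest at 63.3 ± 3.31 FPKM (SD, n = 3), ahead of Aup1 at 51.5 ± 6.64 FPKM, and their ranges did not overlap. Ube2j2 (34.5 ± 2.34 FPKM) and Ube2g2 (32.5 ± 8.41 FPKM) overlapped. Tmem129 (10.0 ± 0.558 FPKM), Rnf185 (9.77 ± 1.21 FPKM) and Rnf145 (8.87 ± 0.376 FPKM) formed a group in which each range overlapped the next. Rnf139 (7.06 ± 0.271 FPKM) and Trim13 (1.39 ± 0.140 FPKM) were lowest, each below the range of the gene before it. Levels of the human and mouse tables were not compared by a test, as species and tissue cannot be told apart.

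None of the 9 genes changed past the threshold in HEK293T cells. With the HRD1 KO label, 0 of 9 passed an adjusted p of 0.05 in either direction (limma, Benjamini-Hochberg over 15796 genes), where 0.057% of all genes were called. In SEL1L KO, 0 of 9 passed as well, beside 0.0317% of all genes. Every one of the 9 overlapped with WT in both comparisons, while 5% of all genes (HRD1 KO) and 6.13% (SEL1L KO) did not overlap. In this model, which holds the genotype groups alone, the counts at an unadjusted p under 0.05 were also 0 of 9, with 2% and 1.49% of all genes at that level. The median log2 fold change of the 9 genes was -0.12 in libraries with the HRD1 KO label and -0.03 in SEL1L KO, close to the medians of all genes (-0.05 and -0.06). The 95% confidence intervals of the fold change reached at most 1.65-fold higher (AUP1, HRD1 KO) and 1.61-fold higher (AUP1, SEL1L KO). For every one of the 9 genes, a 2-fold rise of mRNA thus lay outside the interval in both comparisons. Toward lower levels, the intervals reached 0.557-fold (UBE2G2, HRD1 KO) and 0.461-fold (UBE2G2, SEL1L KO).

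Among the RING ligases, RNF5 and RNF185 are close paralogs that act on membrane proteins such as CFTR. RNF5 (ENSG00000204308; GRCh38 chromosome 6, 32178405 to 32180793) was at 63.78, 62.58 and 49.9 FPKM in WT replicates 1 to 3. It was at 61.42, 76.31 and 41.46 FPKM in libraries with the HRD1 KO label, and at 53.16, 69.55 and 46.63 FPKM in SEL1L KO. Replicate 3 was the lowest library of each group, and the groups overlapped, with differences from WT of -0.01 and -0.07 on the log2 scale (standard error 0.25). RNF185 (ENSG00000138942; chromosome 22, 31160182 to 31207019) was at 14.97, 13.86 and 20.01 FPKM in WT, at 20.19, 15.19 and 17.34 FPKM in libraries with the HRD1 KO label and at 13.37, 14.41 and 23.51 FPKM in SEL1L KO. RNF185 had log2 fold changes of 0.12 and 0.04 (standard error 0.26). RSEM divides reads shared by such paralogs by estimate, and the RNF5 pseudogene RNF5P1 was at 0 to 1.66 FPKM.

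RNF139 (TRC8) and RNF145 are related multi-spanning ligases linked to the control of sterol synthesis. RNF139 (ENSG00000170881; chromosome 8, 124474880 to 124488618) was at 9.52, 11.07 and 9.23 FPKM in WT, at 7.08, 10.04 and 10.61 FPKM in libraries with the HRD1 KO label and at 10.37, 12.49 and 9.17 FPKM in SEL1L KO. Its log2 fold changes of -0.12 and 0.10 (standard error 0.23) were smaller than the spread between libraries. RNF145 (ENSG00000145860; chromosome 5, 159157409 to 159210053) was at 16.24, 26.85 and 27.11 FPKM in WT. It was at 16.84, 29.5 and 17.96 FPKM in libraries with the HRD1 KO label and at 18.59, 24.82 and 21.68 FPKM in SEL1L KO, so that replicate 1 was the lowest library of each group. The log2 fold changes of RNF145 were -0.13 and -0.08 (standard error 0.28).

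TRIM13 is an ER-anchored ligase also linked to autophagy, and TMEM129 is a ligase that a cytomegalovirus protein uses to remove MHC class I heavy chains. TRIM13 (ENSG00000204977; chromosome 13, 49995888 to 50020481) was at 11.75, 12.88 and 9.38 FPKM in WT, at 11.54, 11.07 and 6.87 FPKM in libraries with the HRD1 KO label and at 10.24, 13.27 and 9.11 FPKM in SEL1L KO. For TRIM13 the log2 fold changes were -0.23 and -0.07 (standard error 0.27). TMEM129 (ENSG00000168936; chromosome 4, 1715952 to 1721358) was the steadiest of the 9 genes, with its highest library at 1.35 times the lowest. It was at 40.08, 34.22 and 37.04 FPKM in WT, at 37.97, 33.77 and 29.61 FPKM in libraries with the HRD1 KO label and at 39.95, 39.43 and 36.71 FPKM in SEL1L KO. The log2 fold changes of TMEM129 were -0.14 and 0.06 (standard error 0.17).

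Of the conjugating enzymes, UBE2G2 is a cytosolic E2 that serves several ERAD ligases, and UBE2J2 is anchored in the ER membrane by its tail. UBE2G2 (ENSG00000184787; chromosome 21, 44768580 to 44801826) was at 83.86, 116.75 and 131.0 FPKM in WT. It was at 74.92, 106.29 and 111.23 FPKM in libraries with the HRD1 KO label and at 54.44, 77.13 and 119.25 FPKM in SEL1L KO. Replicate 1 was the lowest and replicate 3 the highest library of each group, and the groups overlapped. The log2 fold change of UBE2G2 in SEL1L KO, -0.45 (standard error 0.30, limma adjusted p = 1.00), was the lowest of the 9 genes. Leaving out 1 library moved it to between -0.74 (without SEL1L KO replicate 3) and -0.18 (without SEL1L KO replicate 1). With all libraries it was -0.18 in libraries with the HRD1 KO label (adjusted p = 1.00). UBE2J2 (ENSG00000160087; chromosome 1, 1253909 to 1273864) was at 52.76, 55.79 and 75.19 FPKM in WT, at 67.86, 57.36 and 62.66 FPKM in libraries with the HRD1 KO label and at 57.22, 53.76 and 67.61 FPKM in SEL1L KO. UBE2J2 had log2 fold changes of 0.05 and -0.03 (standard error 0.19). AUP1 binds UBE2G2 and brings it to ER membranes and lipid droplets. AUP1 (ENSG00000115307; chromosome 2, 74526645 to 74529760) was at 123.04, 114.75 and 206.13 FPKM in WT, at 169.39, 101.39 and 179.03 FPKM in libraries with the HRD1 KO label and at 120.66, 119.22 and 198.0 FPKM in SEL1L KO. Its log2 fold changes were 0.03 and -0.01 (standard error 0.31).

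**Figure D1:**
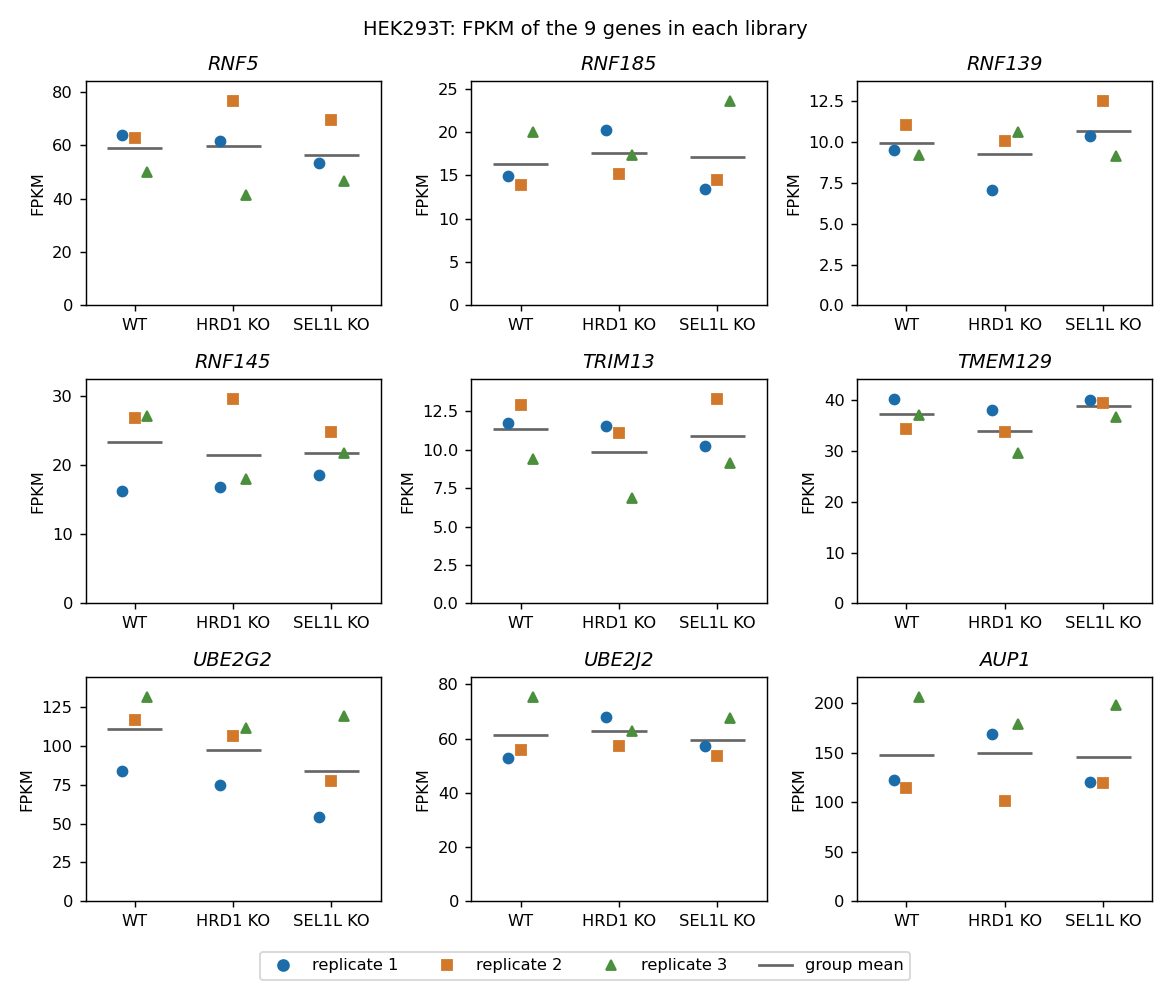
FPKM of the 9 genes (vertical axes from 0) in the 9 HEK293T libraries, by group; symbols and colours mark the replicate number and grey lines the group mean. For RNF5 replicate 3 is the lowest library of all 3 groups, for UBE2G2 replicate 1 is the lowest, and the groups overlap in each panel.

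The values of the HEK293T libraries followed the replicate number more than the genotype. For 8 of the 9 genes the means of the 3 replicate numbers spanned more (log2 scale) than the means of the 3 groups, the exception being TMEM129. The same held for 79% of all genes, so the 9 genes were not unusual in this. For AUP1, the span was 0.80 between replicate numbers and 0.04 between groups. For RNF5 it was 0.59 and 0.07. Over the 9 libraries AUP1 and UBE2J2 varied together (Pearson r = 0.885 of log2 values) and so did RNF5 and TRIM13 (r = 0.865), while AUP1 and RNF5 varied in opposite directions (r = -0.79) and RNF5 and UBE2J2 had r = -0.58. These coefficients are descriptions over libraries that share a replicate number. The sources used here do not say what the numbers stand for.

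Compared within each replicate number, UBE2G2 was lower than WT in 3 of 3 numbers in SEL1L KO, with log2 differences of -0.62, -0.60 and -0.14. It was also lower in 3 of 3 numbers in libraries with the HRD1 KO label, at -0.16, -0.14 and -0.24. Both comparisons use the same WT libraries, and a gene was lower in all 3 numbers in 19.6% of all cases for SEL1L KO and in 15.6% for HRD1 KO. With the replicate number as a block, the change of UBE2G2 in SEL1L KO had a standard error of 0.14 and an unadjusted p of 0.0121, with an adjusted p of 0.841 (limma). In that fit, 874 of 15796 genes had an unadjusted p under 0.05. TRIM13 and TMEM129 were lower in 3 of 3 numbers in libraries with the HRD1 KO label as well (log2 differences of -0.03 to -0.44 and -0.02 to -0.32). None of the 9 genes was higher in 3 of 3 numbers in either comparison, against 9.7% of all genes in HRD1 KO and 10.4% in SEL1L KO.

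In BAT, the 9 genes had higher values in libraries with the Hrd1 KO label than in WT, but none passed the test, and so did many other genes. Each of the 9 lay above every WT library in both Hrd1 KO libraries, as did 51.1% of all genes tested. At an adjusted p under 0.01, 0 of 9 were called higher and 0 lower (limma, Benjamini-Hochberg over 12473 genes), while 0.289% of all genes were called higher and 0.0802% lower. At an unadjusted p under 0.05, 2 of 9 were higher, as were 25.4% of all genes. Log2 fold changes ran from 0.15 (Rnf5) to 0.94 (Trim13) with a median of 0.66. The median of all genes was 0.42, so that a large part of this rise was shared by the table as a whole. With groups of 2 and 3, the intervals were wide, and only Aup1, Rnf139 and Rnf5 had an upper 95% limit under 2-fold.

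Trim13 (ENSMUSG00000035235; GRCm38 chromosome 14, 61598247 to 61605946) had the highest log2 fold change of the 9 genes in Hrd1 KO. It was at 1.28, 1.55 and 1.35 FPKM in WT, at 3.22 and 2.35 FPKM in libraries with the Hrd1 KO label and at 1.88, 2.53 and 2.27 FPKM in those labelled Sel1L KO. Every knockout library was above every WT library. The log2 fold changes were 0.94 in Hrd1 KO (standard error 0.30, limma adjusted p = 0.0995) and 0.63 in Sel1L KO (standard error 0.27, limma adjusted p = 0.270). Aup1 (ENSMUSG00000068328; chromosome 6, 83054521 to 83057808) was at 57.81, 52.13 and 44.58 FPKM in WT, at 74.78 and 70.44 FPKM in Hrd1 KO by label and at 63.33, 59.38 and 53.02 FPKM in Sel1L KO by label. Its log2 fold change was 0.50 (standard error 0.16, limma adjusted p = 0.102) in Hrd1 KO, where both libraries were above WT, and 0.19 (standard error 0.15) in Sel1L KO, where the groups overlapped. Neither gene passed the threshold.

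The conjugating enzymes were above WT in both libraries labelled Hrd1 KO as well. Ube2g2 (ENSMUSG00000009293; chromosome 10, 77622275 to 77645993) was at 25.42, 30.21 and 41.77 FPKM in WT, at 46.3 and 55.91 FPKM in Hrd1 KO and at 83.66, 42.13 and 39.67 FPKM in Sel1L KO. Its log2 fold changes were 0.68 (standard error 0.34) and 0.71 (standard error 0.31), and the Sel1L KO libraries overlapped with WT. Ube2j2 (ENSMUSG00000023286; chromosome 4, 155943831 to 155959604) was at 35.65, 35.98 and 31.77 FPKM in WT, at 44.73 and 66.38 FPKM in Hrd1 KO and at 74.91, 44.67 and 36.88 FPKM in Sel1L KO. Its libraries were above WT in both knockouts, with log2 fold changes of 0.66 and 0.53. In both E2 genes, Sel1L KO replicate 1 was the highest of the 8 libraries.

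Rnf185 (ENSMUSG00000020448; chromosome 11, 3415982 to 3452363) was the gene in which this library stood out most. It was at 8.46, 10.84 and 10.0 FPKM in WT, at 15.61 and 21.89 FPKM in Hrd1 KO and at 61.61, 13.49 and 10.25 FPKM in Sel1L KO. The log2 fold change in Sel1L KO, 1.07 (standard error 0.59), was 0.27 without replicate 1. In Hrd1 KO it was 0.92 (standard error 0.65). Its paralog Rnf5 (ENSMUSG00000015478; chromosome 17, 34601091 to 34603690) had small differences, at 59.75, 63.83 and 66.31 FPKM in WT, 70.27 and 70.31 FPKM in Hrd1 KO and 51.07, 77.32 and 71.77 FPKM in Sel1L KO. Here Sel1L KO replicate 1 was the lowest library, and the log2 fold changes were 0.15 and 0.05.

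Rnf145 (ENSMUSG00000019189; chromosome 11, 44518964 to 44565520) was at 8.57, 8.74 and 9.29 FPKM in WT, at 19.39 and 12.02 FPKM in Hrd1 KO and at 4.28, 7.97 and 15.96 FPKM in Sel1L KO. The 3 Sel1L KO libraries thus lay below, below and above WT. The log2 fold changes of Rnf145 were 0.78 (standard error 0.48) and -0.11 (standard error 0.43), and the first was 0.44 without Hrd1 KO replicate 1 and 1.12 without replicate 2. Rnf139 (ENSMUSG00000037075; chromosome 15, 58889229 to 58907057) was at 6.84, 7.36 and 6.97 FPKM in WT, at 8.96 and 7.72 FPKM in Hrd1 KO and at 4.34, 8.44 and 8.64 FPKM in Sel1L KO, with log2 fold changes of 0.23 and -0.05. Tmem129 (ENSMUSG00000019295; chromosome 5, 33653216 to 33658416) was at 10.06, 10.52 and 9.41 FPKM in WT, at 13.02 and 12.92 FPKM in Hrd1 KO and at 3.06, 13.25 and 13.09 FPKM in Sel1L KO. Its log2 fold changes were 0.37 and -0.29, and the latter was 0.40 without Sel1L KO replicate 1.

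**Figure D2:**
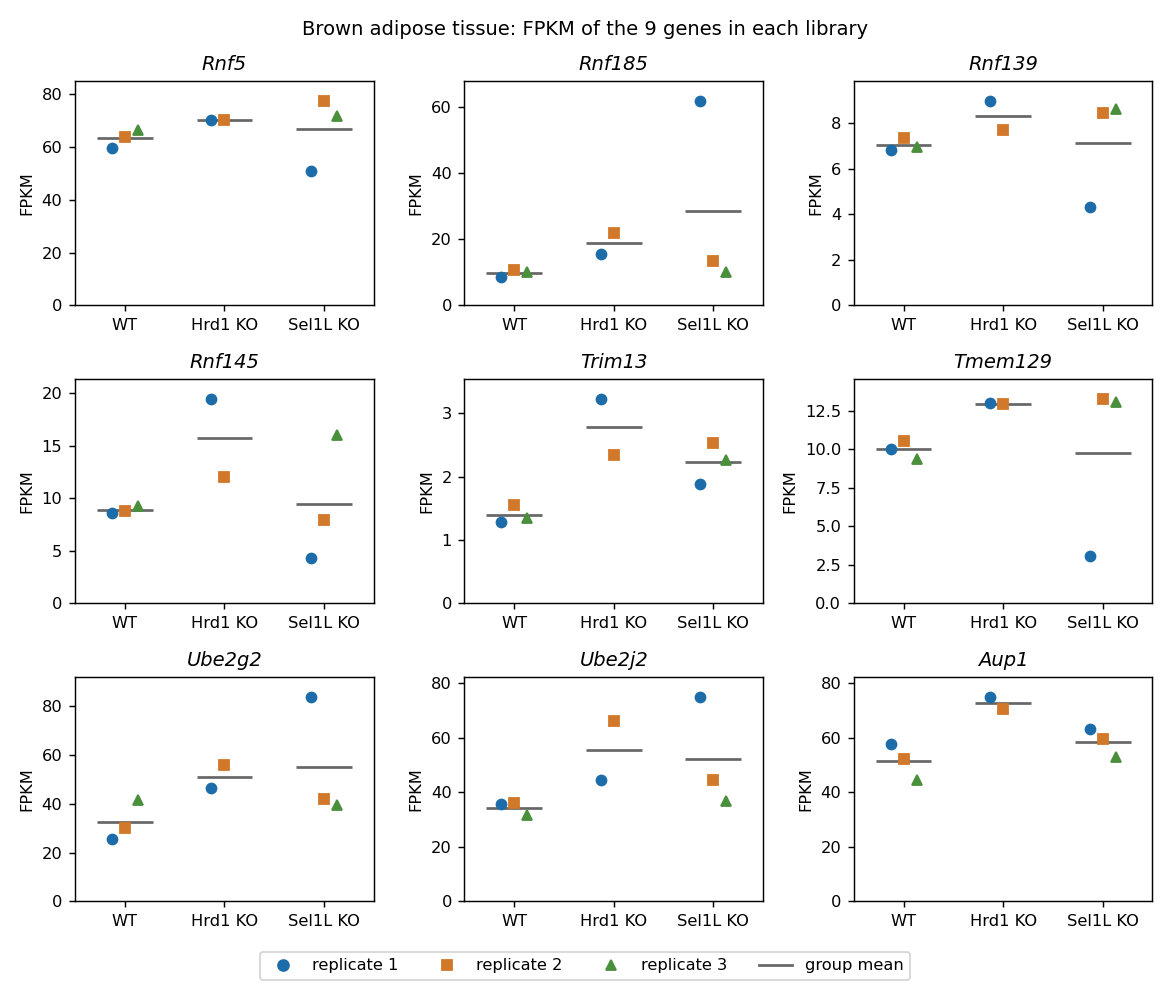
FPKM of the 9 genes (vertical axes from 0) in the 8 BAT libraries, by group; symbols and colours mark the replicate number and grey lines the group mean. Sel1L KO replicate 1 (blue circle) is above all other libraries for Rnf185, Ube2g2 and Ube2j2 and below them for Tmem129, Rnf139, Rnf145 and Rnf5.

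In the libraries labelled Sel1L KO, none of the 9 genes passed an adjusted p of 0.01 (0 higher and 0 lower, beside 0.0882% and 0.016% of all genes). Trim13 and Ube2j2 (2 of 9) were above WT in every library, against 17.7% of all genes, and the other 7 overlapped. Only Trim13 was higher at an unadjusted p under 0.05 in limma (1 of 9, against 12.7% of all genes). The median log2 fold change of the 9 genes was 0.19, beside 0.09 for all genes. Sel1L KO replicate 1 was the highest library for 3 of the 9 genes and the lowest for 4, which makes 77.8% of them, and it was the highest or lowest library for 53.7% of all genes. Without it, all 9 log2 fold changes were above 0, from 0.13 (Aup1) to 0.75 (Trim13). The median of all genes in that fit was 0.16, so that Aup1 lay below the typical gene. The share of all genes above 0 was not counted. Ube2g2 then had 0.36 and Ube2j2 0.24, each below the value with all libraries, while Rnf139 (0.27), Rnf145 (0.35) and Rnf5 (0.24) were above it.

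**Figure D3:**
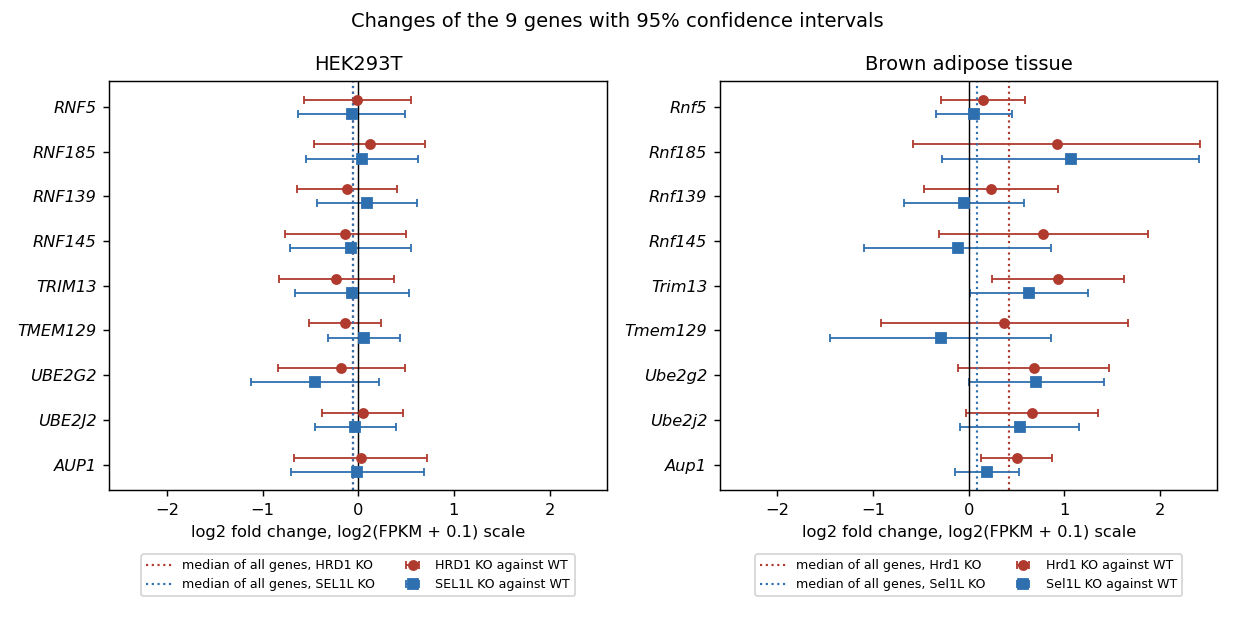
Log2 fold changes (log2(FPKM + 0.1) scale) of the 9 genes against WT with 95% confidence intervals from limma, in HEK293T (left) and BAT (right); dotted lines mark the median of all genes tested. In HEK293T every interval includes 0 and stays below 1, and in BAT the Hrd1 KO values lie around their dotted line at 0.42.

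Leaving out Sel1L KO replicate 1 also changed the comparison of Hrd1 KO with WT, since all groups share an estimate of the spread. All 9 stayed uncalled at an adjusted p under 0.01. At a threshold of 0.05, chosen after seeing the data, 5 of the 9 were higher without that library. These were Rnf185 (limma adjusted p = 0.0192), Aup1 (0.0352), Trim13 (0.0357), Ube2j2 (0.0360) and Ube2g2 (0.0474). Of all genes, 24.9% were higher at that threshold in that fit. With all libraries, 0 of 9 passed 0.05, where 4.38% of all genes were higher, and 0 of 9 passed in Sel1L KO, where 0.689% were. After median-ratio scaling, which sets the typical gene of each library to the same level, 0 of 9 passed 0.05 without the library, beside 4.43% of all genes.

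Median-ratio scaling moved the median gene in Hrd1 KO from 0.42 to -0.02. Relative to the typical gene, Trim13 (0.51), Rnf185 (0.47), Rnf145 (0.33), Ube2g2 (0.23), Ube2j2 (0.21) and Aup1 (0.05) had positive log2 fold changes, and Tmem129 (-0.07), Rnf139 (-0.21) and Rnf5 (-0.30) negative ones. None of these 9 values passed the threshold (limma adjusted p from 0.344 for Trim13 to 0.960 for Tmem129). In Hrd1 KO, Rnf5 had the lowest value of the 9 both as deposited and after scaling. In Sel1L KO the same scaling moved the median gene from 0.09 to -0.0022, and the median of the 9 genes from 0.19 to 0.0919.

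**Figure D4:**
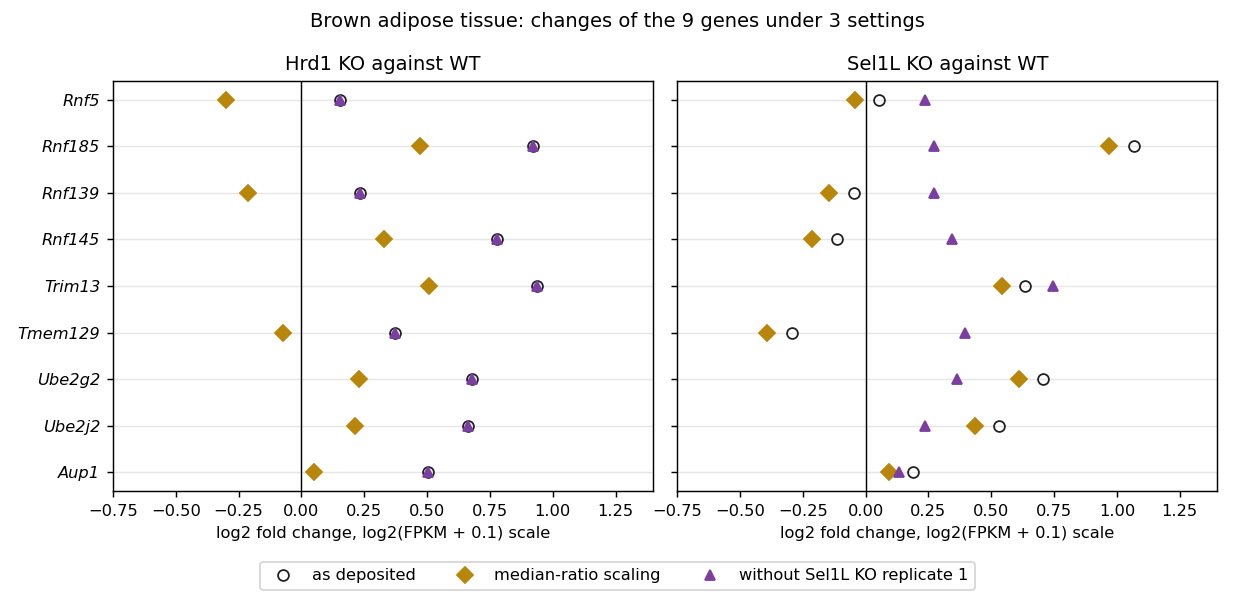
Log2 fold changes (log2(FPKM + 0.1) scale) of the 9 genes in BAT against WT as deposited (open circles), after median-ratio scaling (diamonds) and without Sel1L KO replicate 1 (triangles). In Hrd1 KO the scaling shifts every gene to the left and puts Rnf5, Rnf139 and Tmem129 below 0, and in Sel1L KO leaving out the library brings Rnf185 from 1.07 to 0.27.

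Summed markers of other cell types differed between BAT libraries, though 0 of the markers tested passed the threshold. The 9 macrophage markers, none of them at 0 in any library, summed to 67.9 to 79.98 FPKM in WT, 147.48 to 161.71 FPKM in Hrd1 KO and 153.54 to 278.56 FPKM in Sel1L KO. The 10 skeletal muscle markers summed to 2.08 to 5.95 FPKM in WT, to 420.12 and 16.44 FPKM in Hrd1 KO replicates 1 and 2 and to 81.08, 10.69 and 1.39 FPKM in Sel1L KO replicates 1 to 3. Up to 6 of the muscle markers were at 0 in a WT library, and 0 in Hrd1 KO. The 4 endothelial markers summed to 62.76 to 85.27 FPKM in WT, 103.84 to 134.73 FPKM in Hrd1 KO and 65.09 to 116.89 FPKM in Sel1L KO. The 10 brown adipocyte markers had a median log2 fold change of -0.48 in Hrd1 KO, beside 0.42 for all genes. Among them, Dio2 had a mean of 5.23 FPKM in Hrd1 KO (WT 37.4 FPKM). Plin1 was the only marker of this list above every WT library (mean 817 FPKM, WT 530 FPKM), as were 51.1% of all genes. Macrophage sums were above WT in every knockout library, while the muscle and endothelial sums of Sel1L KO reached into or below the WT range. The part of these cells in the values of the 9 genes was not tested. Fewer cells of a type and less RNA per cell cannot be told apart in bulk tissue.

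The knockouts were also compared with each other. In HEK293T, 0 of 9 genes were called (0% of all genes), with log2 fold changes of HRD1 KO over SEL1L KO from -0.22 (RNF139) to 0.27 (UBE2G2), and all 9 overlapped (5.18% of all genes did not). At an unadjusted p under 0.05 the counts were 0 of 9 in both tables, beside 2.34% of all genes in HEK293T and 16.7% in BAT. In BAT, 0 of 9 genes were called, beside 0.0401% of all genes. There the log2 fold changes of Hrd1 KO over Sel1L KO ran from -0.14 (Rnf185) to 0.89 (Rnf145), and Aup1 was the 1 gene of the 9 without overlap (35.9% of all genes did not overlap). The median of the 9 genes was 0.28, beside 0.30 for all genes.

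The rest of the ERAD machinery was followed in 4 lists. Of the 11 other ER membrane ligases, such as MARCHF6 and RNF103, 9 were tested in each table, and 0 passed the threshold in any of the 4 comparisons with WT. At an unadjusted p under 0.05, 2 of the 9 were higher in Hrd1 KO of BAT (25.4% of all genes), 1 was lower in Sel1L KO of BAT and 0 differed in HEK293T. In Sel1L KO of BAT, 2220 of 12473 genes were at that level in either direction, 1586 of them higher. In HEK293T these were 2% (HRD1 KO) and 1.49% (SEL1L KO) of all genes. The median log2 fold change of these other ligases was -0.10 in HRD1 KO and -0.11 in SEL1L KO HEK293T cells, and 0.25 and -0.05 in BAT. The 2 with the smallest unadjusted p were RNF103 and MARCHF6 (log2 fold changes -0.39 and -0.18) in HRD1 KO, RNF103 and BFAR (-0.25 and -0.22) in SEL1L KO, Rnf26 and Rnf121 (0.87 and 0.57) in Hrd1 KO of BAT and Cgrrf1 and Rnf26 (-0.42 and 0.39) in Sel1L KO of BAT. Of the 10 other E2 enzymes and cytosolic ligases, 9 were tested in each table and 0 passed (5 and 1 were higher at an unadjusted p under 0.05 in Hrd1 KO and Sel1L KO of BAT, beside 25.4% and 12.7% of all genes, and 0 in HEK293T). The 2 with the smallest p were UBE2G1 and UBE2J1 (-0.32 and 0.27) in HRD1 KO, UBE2J1, the E2 partner of HRD1, and STUB1 (0.29 and 0.17) in SEL1L KO, Stub1 and Ube2d3 (0.84 and 0.57) in Hrd1 KO of BAT and Ube2d3 and Ube2d2a (0.37 and 0.39) in Sel1L KO of BAT.

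All 22 genes of membrane extraction and partner proteins, among them VCP, FAF2 and the erlins, were tested, and 0 passed in any comparison with WT. Without adjustment (p under 0.05), 7 of them were higher and 1 lower in Hrd1 KO of BAT, 3 higher and 1 lower in Sel1L KO of BAT, 1 lower in HRD1 KO and 0 in SEL1L KO of HEK293T. The shares of all genes higher in BAT were 25.4% and 12.7%. In either direction, 3417 (Hrd1 KO) and 2220 (Sel1L KO) of 12473 genes were at that level in BAT. In HEK293T these were 2% (HRD1 KO) and 1.49% (SEL1L KO) of all genes. NGLY1, the cytosolic glycanase, and NPLOC4, a VCP cofactor, had the smallest p in HRD1 KO (log2 fold changes -0.54 and -0.40), and ATXN3, a deubiquitinase that binds VCP, was among those with the smallest p in SEL1L KO (-0.30). In BAT, Bag6 (0.90, limma adjusted p = 0.0255) and H13, the gene of signal peptide peptidase (0.82, limma adjusted p = 0.0493), came closest in Hrd1 KO. Insig1, the sterol-regulated partner of ER ligases, was at 36.51, 42.97 and 50.64 FPKM in Sel1L KO against 143.29, 74.68 and 133.94 FPKM in WT (log2 fold change -1.39, limma adjusted p = 0.0616). It overlapped with WT in Hrd1 KO, at 109.5 and 152.08 FPKM. H13 had a log2 fold change of 0.47 in Sel1L KO.

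Of the 13 genes of the SEL1L-HRD1 complex itself, all were tested, and 1 passed in each of the 4 comparisons with WT. At an unadjusted p under 0.05 more of the 13 were higher: 10 in Hrd1 KO of BAT (25.4% of all genes), 6 in Sel1L KO of BAT (12.7%), and 2 in HRD1 KO and 3 in SEL1L KO of HEK293T (2% and 1.49% of all genes in either direction), and SEL1L was the 1 lower gene in SEL1L KO. HERPUD1, an ER stress-induced member of the complex picked here after its values were seen, was at 50.32, 69.42 and 45.55 FPKM in WT, 176.24, 353.41 and 193.99 FPKM in HRD1 KO and 167.97, 310.99 and 138.69 FPKM in SEL1L KO, all above WT (limma adjusted p = 0.149 and 0.392). Sel1l in Hrd1 KO of BAT, at 57.58 and 65.22 FPKM against 9.1 to 12.88 FPKM in WT, had a log2 fold change of 2.52 (limma adjusted p = 0.0275).

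The gene past the threshold was DERL3, a derlin that is a known target of the unfolded protein response. DERL3 (ENSG00000099958; chromosome 22, 23834503 to 23839128) was at 7.47, 6.38 and 7.84 FPKM in WT, at 35.51, 24.76 and 21.05 FPKM in HRD1 KO and at 32.81, 35.81 and 29.22 FPKM in SEL1L KO. Every knockout library was above every WT library, and DERL3 rose by a log2 fold change of 1.86 (standard error 0.23, limma adjusted p = 0.0252) and 2.16 (limma adjusted p = 0.0139). In BAT, Derl3 (ENSMUSG00000009092; chromosome 10, 75893413 to 75895941) was at 0.29, 0.33 and 0.22 FPKM in WT, at 27.9 and 31.72 FPKM in Hrd1 KO and at 69.34, 18.47 and 9.47 FPKM in Sel1L KO. The log2 fold changes of Derl3 were 6.31 (limma adjusted p = 0.00681) and 5.94 (limma adjusted p = 0.00938). In WT, Derl3 was below 1 FPKM, so that it passed the filter on low values only through the knockout libraries. The calls of DERL3 and Derl3 depended on the settings, though the direction did not. Over 20 alternatives, DERL3 stayed past the threshold in 11 for HRD1 KO and in 16 for SEL1L KO, and Derl3 in 7 for Hrd1 KO and in 6 for Sel1L KO. The highest adjusted p over these alternatives was 0.158 for HRD1 KO, 0.181 for SEL1L KO, 0.0804 for Hrd1 KO and 0.0800 for Sel1L KO (limma). DERL3 lost its call without any 1 of the WT libraries, HRD1 KO replicate 2 or any SEL1L KO library in HRD1 KO (adjusted p 0.0534 to 0.151), and without WT replicate 1 or 2 or SEL1L KO replicate 1 or 2 in SEL1L KO (0.0701 to 0.181). In both BAT comparisons Derl3 lost its call without any 1 of the WT or Hrd1 KO libraries or Sel1L KO replicate 2 (0.0158 to 0.0715 in Hrd1 KO, 0.0281 to 0.0800 in Sel1L KO). The difference between DERL3 and the 9 genes was not tested.

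**Figure D5:**
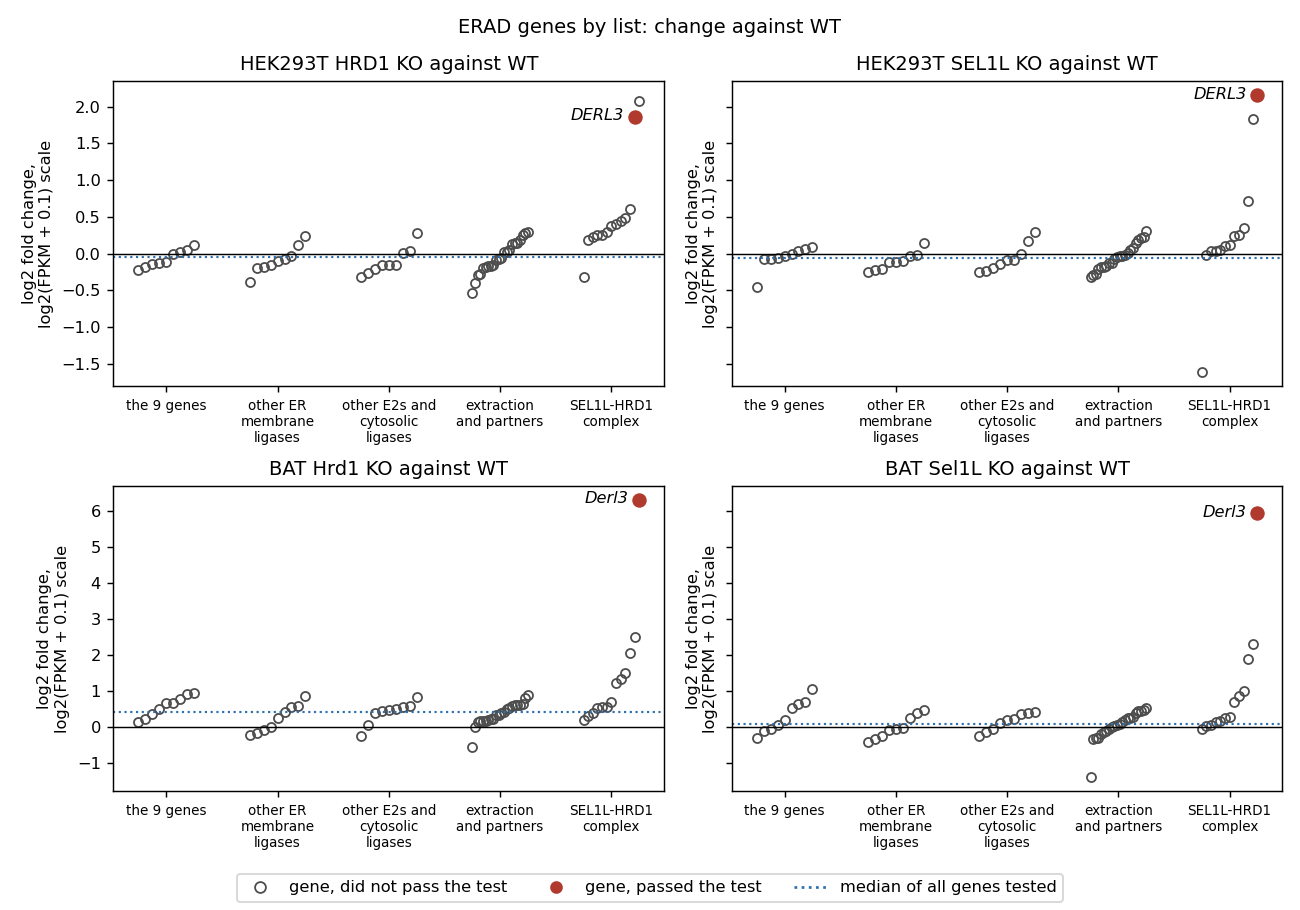
Log2 fold changes against WT (log2(FPKM + 0.1) scale) of the 9 genes and of 4 lists of ERAD genes, in order of size within a list; filled red points passed the threshold and the dotted line is the median of all genes tested. DERL3 or Derl3 is the filled point of each panel, and the 9 genes stay between -0.45 and 0.12 in HEK293T and between -0.29 and 1.07 in BAT.

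Some of the 9 genes overlap other genes. Reads from the shared bases cannot be told apart without strand, and where both genes lie on the same strand it does not separate them either. TRIM13 shares 1086 exonic bases with KCNRG on the same strand (0.27 to 1.31 FPKM in HEK293T) and 690 with the antisense DLEU2 (6.93 to 17.38 FPKM). RNF139 shares 134 exonic bases with TATDN1 and the mouse Rnf139 1140 with Tatdn1 (9.2 to 13.57 FPKM in BAT). The mouse Rnf139 also shares 197 with Gm49356 on the same strand (1.01 to 4.11 FPKM in BAT). Likewise, the mouse Ube2g2 shares 166 with Gm49325 on the same strand (0 to 3.44 FPKM in BAT). AUP1 shares 165 with HTRA2 and the mouse Aup1 753 with Htra2 (19.75 to 30.56 FPKM in BAT). TMEM129 shares 132 with TACC3 and the mouse Tmem129 289 with Tacc3 (0.56 to 1.87 FPKM in BAT). RNF185 shares 353 with RNF185-AS1 (0 to 14.33 FPKM). TATDN1 (33.84 to 54.54 FPKM) and TACC3 (77.38 to 117.02 FPKM) were above their partners RNF139 and TMEM129 in every HEK293T library, and HTRA2 (25.74 to 41.54 FPKM) was below AUP1. The part of shared reads in the values was not tested.

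The genes with the pattern most like each of the 9 over all libraries of a table were, in HEK293T (9 libraries), SLC35F6 for UBE2J2 (Pearson r = 0.988), ZZEF1 for UBE2G2 (0.987), PRPF19 for AUP1 (0.986), PRELID2 for RNF5 (0.977), LONRF2 for RNF139 (0.977), PLEKHM1 for RNF185 (0.975), SUGP2 for TRIM13 (0.972), FAM104A for RNF145 (0.965) and a gene without a symbol for TMEM129 (0.956). In BAT (8 libraries) they were Paqr4 for Tmem129 (0.997), Pigh for Rnf139 (0.997), Nrip2 for Trim13 (0.996), Tnfsf10 for Rnf5 (0.992), Med7 for Rnf185 (0.988), Dusp1 for Ube2g2 (0.985), Pex11g for Aup1 (0.983), Ythdf1 for Ube2j2 (0.983) and Mms19 for Rnf145 (0.968). No gene appeared in both tables. These are the highest of 12473 or more coefficients each and describe likeness only.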

How the data were processed

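The values the authors deposited are FPKM per gene and library, to 2 decimals. Per the study's methods, libraries were sequenced as paired-end reads on the same flow cell, mapped with STAR to GRCh38 or GRCm38 and quantified with RSEM. The submitters' processing notes give FastQC 0.11.8, STAR 2.7.8a and RSEM 1.3.3. The annotation release and the strand setting are not given in the sources used here. FPKM depends on the other genes of a library, so that a few abundant genes shift all others. The authors' test on count estimates was not repeated, since FPKM values are not counts.

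A gene was tested where 3 HEK293T or 2 BAT libraries had 1 FPKM or more. Values were analysed as log2(FPKM + 0.1) using limma 3.58.1 (lmFit, contrasts.fit, eBayes with trend; R 4.3.3), with all 3 groups of a table in a single model, two-sided, and Benjamini-Hochberg adjustment over all genes tested. Calls needed an adjusted p under 0.05 for HEK293T or 0.01 for BAT. The study's plots took the unadjusted p at the first level for HEK293T and the q-value at the second for BAT. Scripts were tested on simulated data. Intervals are 95% confidence intervals of limma's moderated estimate. Python 3.11.15 with pandas 2.3.3, NumPy 2.4.6 and matplotlib 3.10.9, and the R package data.table (version 1.17.8), handled tables and plots.

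Groups were taken from the sample labels. The 9 genes and all gene lists were chosen with earlier results of these data known. The text names the 9 genes, SEL1L and SYVN1, and from each list the genes past the threshold in a comparison with WT (at most 4 by size) or else the 2 of smallest unadjusted p. For each of the 9 genes it also names the gene of highest Pearson r, and some of the overlapping genes. A gene that this rule names is not reported here.

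Read depth is unknown. Relative depth, from the step that 1 fragment makes in low genes (8349 in HEK293T, 5027 in BAT), varied 1.90-fold over the HEK293T libraries and 1.77-fold over the BAT libraries. Low genes such as Trim13 are the least precise. Replicates share numbers across groups. In HEK293T, deviations of same-numbered libraries from their group means correlated at 0.216 to 0.485 and those of other pairs at -0.40 to 0.0270, so that the numbers pair the libraries. Alternatives were another scaling, quantile normalization, other pseudocounts and filters, no variance trend, library weights, only the 2 groups compared, the unadjusted p, a replicate block and leaving out each library.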

Additional observations from a re-analysis of the deposited data

Results flagged for a closer look

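RNF103, an ER membrane ligase outside the 9 genes, differed from WT in opposite directions under the same label in the 2 tables. In HEK293T it was at 9.43, 11.43 and 8.94 FPKM in WT and at 6.67, 7.62 and 8.34 FPKM in libraries with the HRD1 KO label, all lower (log2 fold change -0.39, standard error 0.24). In BAT, Rnf103 was at 6.86, 6.14 and 7.71 FPKM in WT and at 10.18 and 10.39 FPKM in libraries with the Hrd1 KO label, all higher (0.57, standard error 0.29). Neither change passed the threshold in limma's test (adjusted p = 1.00 and 0.238), and the difference between the tables was not tested. In BAT Hrd1 KO, 51.1% of all genes were higher in every library, and the median log2 fold change of all genes was 0.42. In HEK293T HRD1 KO, 5% of all genes did not overlap with WT, in either direction, and the median was -0.05.  For the 9 genes no HEK293T group lay wholly above or below WT. Under the same label 6 of them had log2 fold changes below 0 in HEK293T and above 0 in BAT, as with TRIM13 (-0.23 and 0.94 for Trim13) and UBE2G2 (-0.18 and 0.68 for Ube2g2). These differences were not tested either, and the share of all genes with this pattern was not counted. The medians of all genes, -0.05 and 0.42, differed in the same direction. After median-ratio scaling, Rnf139 (-0.21), Rnf5 (-0.30) and Tmem129 (-0.07) were below 0 in BAT. No group had enough libraries for a test of single outlying libraries.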

How the results depend on the processing

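The counts of the 9 genes called higher or lower were 0 under every alternative planned, in all 6 comparisons and at the thresholds used. The exception was added after seeing the data: at an adjusted p under 0.05 and without BAT Sel1L KO replicate 1, 5 of the 9 were higher in Hrd1 KO. With few libraries, a count of 0 does not show that levels were equal. The replicate block changed no call of the 9 genes, whose lowest adjusted p against WT in HEK293T with the block was 0.841. In BAT, where same-numbered libraries correlated at -0.06 to 0.0774 and the numbers do not pair the libraries, the block lowered the number of genes called in Hrd1 KO from 46 to 5. In HEK293T it raised the number from 9 to 25 in HRD1 KO and from 5 to 12 in SEL1L KO. The number called in BAT Hrd1 KO ran from 1 to 775 when 1 library was left out (775 without Sel1L KO replicate 1), and was 5 after median-ratio scaling, 18 after quantile normalization, 371 with library weights and 378 with only the 2 groups. In Sel1L KO it ran from 1 to 61, against 13, and was 500 with library weights and 1 under median-ratio scaling and under quantile normalization. No filter on low values, no variance trend, the block and only the 2 groups gave 1, 2, 1 and 1. In HEK293T the number ran from 2 (without SEL1L KO replicate 2) to 18 (without HRD1 KO replicate 3) in HRD1 KO, with 27 for the block with median-ratio scaling and 2 with only the 2 groups. In SEL1L KO it ran from 0 (without SEL1L KO replicate 2; 113 genes higher at an unadjusted p under 0.05 with all libraries) to 9, with 9 without a filter and 13 with library weights or with the block and scaling. Unadjusted p-values passed the threshold in 1424 and 846 genes in BAT and in 316 and 236 in HEK293T. Between the knockouts, 5 genes were called in BAT (0 to 14 over alternatives other than the unadjusted p, which gave 597) and 0 in HEK293T (0 to 13, and 369 at an unadjusted p under 0.05; limma).

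Some log2 fold changes changed sign under some settings, none past the threshold, and the cause was not tested. Not all of them were near 0 in the main fit, such as Aup1 (0.50) and Tmem129 (0.37) in BAT Hrd1 KO. In HEK293T HRD1 KO the sign changed under quantile normalization (AUP1 -0.035), median-ratio scaling (RNF5 0.016), library weights (RNF5 0.037) and the replicate block with median-ratio scaling (RNF5 0.016). Leaving out 1 library at a time gave values of -0.13 to 0.29 for AUP1, -0.23 to 0.058 for RNF139, -0.39 to 0.015 for RNF145, -0.21 to 0.23 for RNF5, -0.36 to 0.0080 for TRIM13, -0.36 to 0.0011 for UBE2G2, -0.052 to 0.20 for UBE2J2, -0.53 to 0.048 for UBE2G1, -0.0073 to 0.47 for UBE2J1. In HEK293T SEL1L KO the sign changed under median-ratio scaling (AUP1 0.048, UBE2J2 0.028), library weights (AUP1 0.11, UBE2J2 0.012), the replicate block with median-ratio scaling (AUP1 0.048, UBE2J2 0.028) and quantile normalization (TRIM13 0.016). Leaving out 1 library at a time gave values of -0.25 to 0.25 for AUP1, -0.023 to 0.20 for RNF139, -0.32 to 0.045 for RNF145, -0.21 to 0.20 for RNF185, -0.23 to 0.058 for RNF5, -0.22 to 0.052 for TRIM13, -0.13 to 0.13 for UBE2J2. In BAT Hrd1 KO the sign changed under the replicate block with median-ratio scaling (Aup1 -0.059, Rnf139 -0.16, Rnf5 -0.27), median-ratio scaling (Rnf139 -0.21, Rnf5 -0.30, Tmem129 -0.073), quantile normalization (Rnf139 -0.26, Rnf5 -0.078, Tmem129 -0.078) and median-ratio scaling without Sel1L KO replicate 1 (chosen after seeing the data) (Rnf139 -0.22, Rnf5 -0.30, Tmem129 -0.078). No sign changed there when 1 library was left out, but Rnf145 ran from 0.44 to 1.12, Ube2j2 from 0.38 to 0.95 and Rnf139 from 0.13 to 0.34. In BAT Sel1L KO the sign changed under median-ratio scaling without Sel1L KO replicate 1 (chosen after seeing the data) (Aup1 -0.045, Rnf139 0.098, Rnf145 0.17, Tmem129 0.22, Sel1l -0.53, Ube2d2a -0.025), library weights (Rnf139 0.23, Rnf145 0.10, Tmem129 0.33, Sel1l -0.37), median-ratio scaling (Rnf5 -0.043), quantile normalization (Rnf5 -0.067, Sel1l -0.022) and the replicate block with median-ratio scaling (Rnf5 -0.043). Leaving out 1 library at a time gave values of -0.22 to 0.27 for Rnf139, -0.59 to 0.35 for Rnf145, -0.063 to 0.24 for Rnf5, -0.64 to 0.40 for Tmem129, -0.36 to 0.45 for Sel1l.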
